A study of Mus musculus with 10 samples.

Results

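The genes described here mark the fibrocytes of the spiral ligament and the spiral limbus, the connective tissue that borders the fluid spaces of the cochlea. They were listed by symbol, with earlier results of these data known, and are Coch, Otos, Pou3f4, Slc26a4, Car3, Slc4a11, Tbx18 and Atp1b1, 8 of the 54532 genes in the count files. All 8 were among the 18329 genes that passed the filter on low counts.

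The source of the RNA was whole cochlea, taken at 12 months of age from mtKeima mice, a reporter strain on a mixed background whose mitochondria carry a pH-sensitive fluorescent protein. The NR group had 5 mice that drank nicotinamide riboside (NR), a precursor of NAD+, at 7 mg/ml (24 mM) for 10 months, and the 5 control mice (Veh) drank regular water. Every mouse of both groups carried the reporter, and each library was 1 mouse. The labels give all mice as female, whereas the methods of the study describe males, and the libraries held 17060379 to 24419230 counts each.

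Fibrocytes of the spiral ligament lie between the perilymph and the stria vascularis, and those of the limbus lie under the inner edge of the organ of Corti. They secrete a collagen-rich matrix and are joined by gap junctions into a network through which K+ that has left the hair cells is carried back towards the stria, which secretes it into the endolymph. Genes of this tissue are known for inherited and age-related hearing loss. The list is not pure for the cell type. Slc26a4 is best known from epithelial cells of the lateral wall and the endolymphatic sac, Atp1b1 is also used by strial and nerve cells, and Car3 is abundant in muscle and fat. In RNA from a whole organ, fewer fibrocytes and less RNA per fibrocyte cannot be told apart.

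All 8 genes had a lower mean level in the NR-treated than in the non-treated mice, and 1 of them, Otos, passed an unadjusted p of 0.05. Otos, which encodes the small secreted protein otospiralin of fibrocytes, was at 0.604 times the non-treated level, with a 95% interval of 0.430 to 0.847. No member passed an adjusted p of 0.05, and across all genes tested 0% did so in edgeR. DESeq2, run as an alternative, called 102 genes, none of them a member, and gave Otos an adjusted p of 0.0991. At an unadjusted p of 0.05, 4.88% of all genes were lower and 4.83% were higher in the NR group, against 1 and 0 of the 8 members. The members' median log2 fold change was -0.28, beside -0.01 over all genes, of which 52.9% had a negative value. No member had groups that did not overlap, whereas in 0.878% of all genes every NR-treated mouse lay below every non-treated mouse and in 0.769% above. Without non-treated mice 3 and 4, which had the highest mean level of these genes, 4 of the 8 values turned positive. Otos then no longer passed (unadjusted p = 0.0629 by edgeR). Leaving out high mice of the Veh group alone raises these values by construction. Without NR-treated mouse 2 as well, the highest of its group, all 8 values were negative.

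Promoter sequence is shown for 3 members that stand at different ends of the list. Otos had the largest change, Coch the highest level, and Slc26a4 the fewest CpG dinucleotides. Each line gives the 250 bases before the RefSeq start of the gene, on the strand of the gene (build GRCm38.p6), with CpG dinucleotides in capitals. Coch lies on the plus strand (chr12:51593091-51593340), and Otos (chr1:92648842-92649091) and Slc26a4 (chr12:31559985-31560234) on the minus strand.
Coch: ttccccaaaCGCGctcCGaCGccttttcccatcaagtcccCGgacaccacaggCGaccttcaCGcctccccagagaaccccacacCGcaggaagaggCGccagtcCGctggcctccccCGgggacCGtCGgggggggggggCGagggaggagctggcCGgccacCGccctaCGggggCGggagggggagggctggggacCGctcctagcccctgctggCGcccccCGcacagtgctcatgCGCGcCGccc
Otos: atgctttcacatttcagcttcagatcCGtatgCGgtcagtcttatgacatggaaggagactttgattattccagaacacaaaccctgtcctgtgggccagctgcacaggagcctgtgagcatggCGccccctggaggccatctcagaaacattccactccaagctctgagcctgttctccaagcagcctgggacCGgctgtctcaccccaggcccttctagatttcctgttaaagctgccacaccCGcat
Slc26a4: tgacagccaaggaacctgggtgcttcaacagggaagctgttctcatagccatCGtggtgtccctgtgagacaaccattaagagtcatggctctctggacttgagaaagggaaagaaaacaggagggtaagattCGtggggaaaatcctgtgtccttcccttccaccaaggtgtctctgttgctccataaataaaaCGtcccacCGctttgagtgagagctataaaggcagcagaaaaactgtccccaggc

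The Coch window held 24 CpG dinucleotides, the Otos window 5 and the Slc26a4 window 4, beside a median of 6 over 32851 promoter windows of the same length. Windows were found for 6 of the 8 members, the other 3 being Pou3f4 with 13, Tbx18 with 15 and Atp1b1 with 24 CpG dinucleotides. The RefSeq window of Pou3f4 (chrX:110814129-110814378) reaches past the gene start in the count files, so part of it lies inside the gene. The POU octamer ATGCAAAT, searched on both strands, was in 0 of the 6 windows and in 1.601% of all windows. The T-box half-site AGGTGTGA was also in 0 of the 6 and in 1.12% of all windows. The letters TATAAA were in the Slc26a4 window and in none of the other 5, and were in 12.4% of all windows. That element was added once the sequences had been seen.

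The secreted proteins of the matrix are described first. Otos (chr1:92644218-92648841, minus strand, mm10) was at 583.5, 773.0, 638.5, 1001 and 544.3 CPM (counts scaled to a common library size) in the NR-treated mice 1 to 5. In the non-treated mice 1 to 5 it was at 720.1, 987.6, 1282, 1617 and 1260 CPM. In all, 3 NR-treated mice lay below every non-treated mouse and 3 non-treated mice lay above every NR-treated mouse, while NR-treated mouse 4 and non-treated mouse 1 crossed over. The means were 708.1 ± 185.2 CPM in the NR group and 1173 ± 337.5 CPM in the Veh group (SD, n = 5 each). The log2 fold change was -0.73 (SE 0.222, unadjusted p = 0.00735, adjusted p = 0.423, edgeR's quasi-likelihood test with Benjamini-Hochberg adjustment). By p it ranked 308 among the 18329 genes. The exact permutation test over all labelings of the mice, two-sided, gave p = 0.0397, and the smallest p that it can give is 0.00794.

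Coch (chr12:51593341-51605771, plus strand) encodes cochlin, an abundant secreted matrix protein of the spiral ligament. It was at 2308, 3612, 2551, 2233 and 2357 CPM in the NR-treated mice 1 to 5 and at 3084, 2116, 4207, 3052 and 2445 CPM in the non-treated mice 1 to 5. The highest mouse was non-treated mouse 3 and the next was NR-treated mouse 2, and the lowest of all was a non-treated mouse, so the groups overlapped over most of their range. The means were 2612 ± 571.3 and 2981 ± 799.2 CPM (SD, n = 5 each), with a log2 fold change of -0.19 (95% interval -0.61 to 0.23) and an unadjusted p of 0.343 in edgeR. A decrease to 0.654 times or an increase to 1.18 times the non-treated level lies within this interval. By mean CPM, Coch ranked 12 among the 18329 genes.

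**Figure D1:**
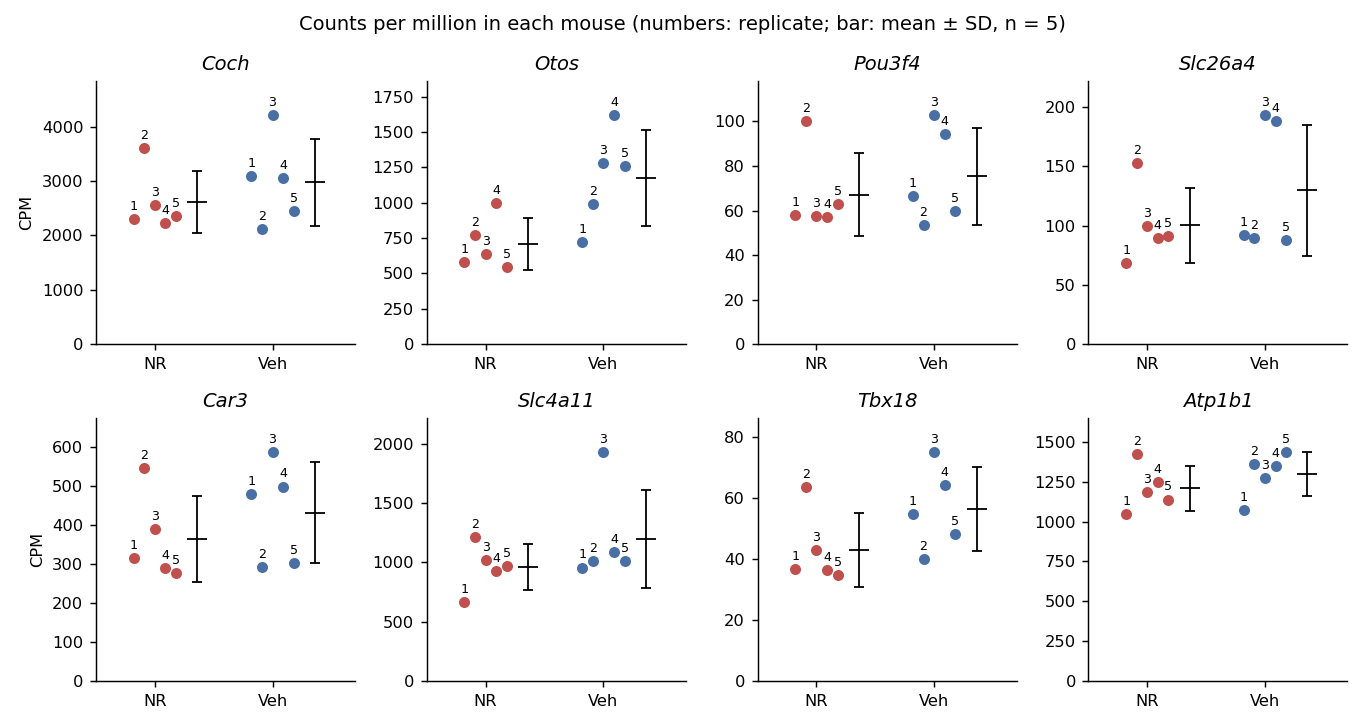
Level of each of the 8 genes in every mouse, in CPM on a linear axis from 0, with NR-treated mice in red, non-treated (Veh) mice in blue, the replicate number above each point, and the mean ± SD of 5 mice beside it. NR-treated mouse 2 and non-treated mice 3 and 4 sit above the others for Pou3f4 (94.1 CPM and over) and Slc26a4 (152.9 CPM and over), and Otos sets the groups furthest apart.

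The transcription factors of the otic mesenchyme came next. Pou3f4 (chrX:110814280-110817207, plus strand), a POU-domain factor whose loss disturbs the ligament and causes X-linked deafness, was at 58.2, 100.1, 57.5, 57.1 and 62.9 CPM in the NR-treated mice 1 to 5. In the non-treated mice 1 to 5 it was at 66.4, 53.6, 102.7, 94.1 and 59.9 CPM. A total of 3 mice, 1 of the NR group and 2 of the Veh group, lay near 100.1 CPM and the other 7 between 53.6 and 66.4 CPM. The log2 fold change was -0.17 (95% interval -0.64 to 0.30), with an unadjusted p of 0.452 in edgeR.

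Tbx18 (chr9:87702800-87731260, minus strand) is a T-box factor that fibrocytes need for their differentiation. It was at 36.8, 63.8, 43.1, 36.5 and 34.9 CPM in the NR-treated mice 1 to 5 and at 54.8, 39.9, 75.2, 64.3 and 48.3 CPM in the non-treated mice 1 to 5. In all, 3 NR-treated mice lay below every non-treated mouse, whereas only non-treated mice 3 and 4 were above NR-treated mouse 2. The means were 43.0 ± 12.0 and 56.5 ± 13.8 CPM (SD, n = 5 each), and the log2 fold change was -0.39 (SE 0.20, unadjusted p = 0.0750, adjusted p = 0.551 by edgeR). Without NR-treated mouse 2 the change was -0.57 with an unadjusted p of 0.00604 (adjusted p = 0.230). Without non-treated mouse 2 it was -0.48 with an unadjusted p of 0.0343 (adjusted p = 0.448). These were the lowest p of the 10 fits that each left out 1 mouse. Both left out a mouse that ran against the difference, the highest of the NR group or the lowest of the Veh group. Over the 10 fits the change lay between -0.57 and -0.25, with an unadjusted p between 0.00604 and 0.217 in edgeR. The weakest was the fit without non-treated mouse 3. The exons of Tbx18 overlap those of D030062O11Rik on the other strand, and the counting took no account of strand. That gene was at 0.896 ± 0.555 CPM in the NR group and 1.33 ± 0.477 CPM in the Veh group (SD, n = 5 each).

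The ion and acid-base transporters follow. Slc26a4 (chr12:31519827-31559969, minus strand) encodes pendrin, an exchanger of Cl-, iodide and HCO3-. It was at 68.3, 152.9, 100, 89.6 and 91.3 CPM in the NR-treated mice 1 to 5 and at 91.9, 89.4, 193.1, 188.0 and 87.5 CPM in the non-treated mice 1 to 5. The same 3 mice that were high for Pou3f4 were high here, and the non-treated mice 1, 2 and 5 lay within the range of the other NR-treated mice. The log2 fold change was -0.37 (95% interval -1.0 to 0.26, unadjusted p = 0.219 by edgeR). The coefficient of variation among the non-treated mice, 42.6%, was the highest of the 8 genes in either group. The 3 marker genes of the endolymphatic sac, another source of pendrin, together stood at 1.35 to 6.29 CPM per mouse.

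Slc4a11 (chr2:130684113-130697519, minus strand) encodes a membrane transporter for H+ or OH- that fibrocytes carry. It was at 667.6, 1214, 1024, 928.0 and 970.0 CPM in the NR-treated mice 1 to 5 and at 957.3, 1011, 1932, 1086 and 1010 CPM in the non-treated mice 1 to 5. Non-treated mouse 3 stood alone at the top, and the other 4 non-treated mice lay within the range of the NR group. The log2 fold change was -0.32 (95% interval -0.79 to 0.15, unadjusted p = 0.161 by edgeR), and it was -0.07 without that mouse.

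Car3 (chr3:14863512-14872523, plus strand) encodes carbonic anhydrase 3. It was at 315.8, 547.3, 389.0, 290.7 and 276.4 CPM in the NR-treated mice 1 to 5 and at 478.4, 291.0, 587.0, 498.6 and 301.8 CPM in the non-treated mice 1 to 5. The groups overlapped, with 3 non-treated mice and 1 NR-treated mouse at 478.4 CPM or above. The log2 fold change was -0.25 (95% interval -0.77 to 0.28, unadjusted p = 0.324 by edgeR). The skeletal muscle markers summed to 10.3 to 791.3 CPM per mouse in the NR group and 8.87 to 71.1 CPM in the Veh group. They were highest in NR-treated mice 3 and 5, whose Car3 levels were 389.0 and 276.4 CPM. The adipocyte markers summed to 67.0 to 125.0 CPM in the NR group and 40.7 to 63.9 CPM in the Veh group. They were highest in NR-treated mouse 2, which also had the highest Car3 level of its group, whereas non-treated mouse 3, with the highest Car3 level of all, had 42.9 CPM. The part of muscle and fat in the Car3 levels was not tested.

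Atp1b1 (chr1:164437109-164458355, minus strand) encodes the beta-1 subunit of the Na,K-ATPase, the pump that takes up K+ in fibrocytes and strial cells. It was at 1049, 1423, 1189, 1248 and 1139 CPM in the NR-treated mice 1 to 5 and at 1075, 1362, 1274, 1348 and 1437 CPM in the non-treated mice 1 to 5. The ranges of the groups almost coincided. This was the member with the least spread (coefficient of variation 11.6% and 10.6%) and the smallest change, a log2 fold change of -0.10 with a 95% interval of -0.33 to 0.12 (unadjusted p = 0.333 by edgeR). Its exons overlap those of Nme7 on the other strand, which was at 10.2 ± 1.08 and 10.1 ± 1.63 CPM (SD, n = 5 each).

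**Figure D2:**
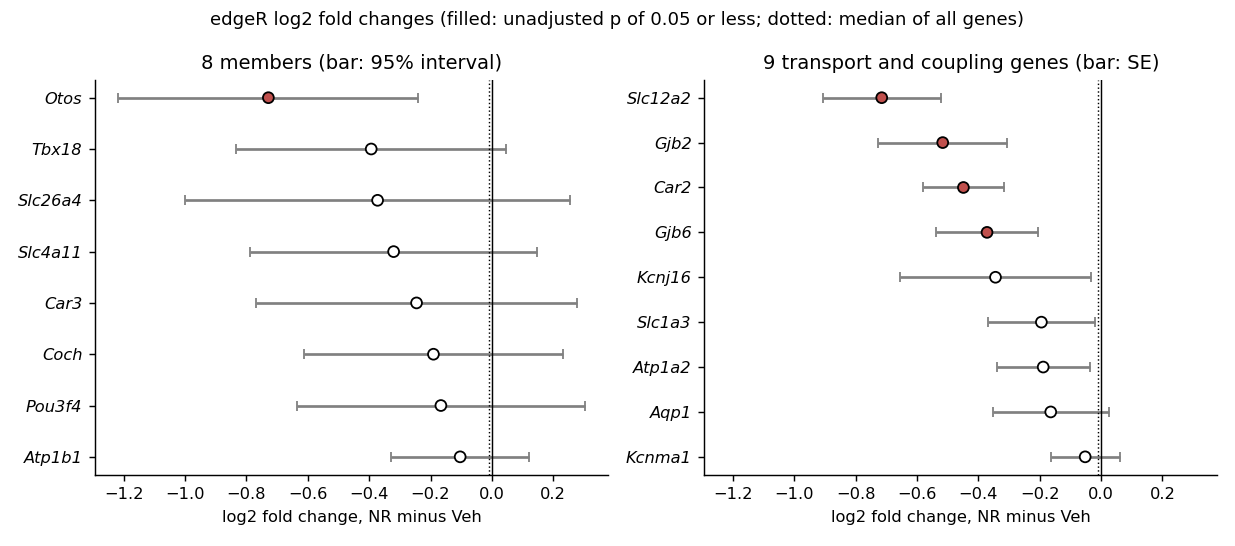
Log2 fold change (NR minus Veh, horizontal axis) of the 8 genes with 95% intervals (left) and of 9 transport and coupling genes with standard errors (right), filled where the unadjusted p was 0.05 or less, with a dotted line at the median of all genes. Every point of both panels lies left of 0. Otos, at -0.73, is the filled point on the left, and 4 points are filled on the right.

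Levels of different genes were compared per kilobase of the gene length that the files give. In the NR group Coch was highest at 871.4 ± 190.6 CPM per kb, then Atp1b1 at 392.5 ± 45.4, Otos at 229.7 ± 60.1 and Slc4a11 at 192.2 ± 39.4 CPM per kb (SD, n = 5). Car3 followed at 127.0 ± 38.9, Slc26a4 at 32.3 ± 10.2, Pou3f4 at 22.9 ± 6.35 and Tbx18 at 9.12 ± 2.55 CPM per kb. The order was the same in the Veh group, in which Otos was at 380.7 ± 109.5 CPM per kb and Atp1b1 at 421.7 ± 44.9. Otos and Slc4a11, Slc4a11 and Car3, and Slc26a4 and Pou3f4 did not differ beyond their SDs in either group, nor did Atp1b1 and Otos in the Veh group. The place of Otos rests on the length taken. Its length of 3082 bases in the files includes a second annotated transcript that is not protein coding, whereas its coding transcript spans 704 bases in GENCODE M21. On coding transcripts, Otos would be at 1006 and 1666 CPM per kb in the NR and Veh groups, and Coch at 974.3 and 1112.

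The spread between mice was far above counting error. The lowest count of any member was 603 reads (Tbx18), for which counting alone gives a coefficient of variation of 4.07%, and the lowest count of Coch was 40727 reads, for which it gives 0.496%. Between mice of a group the coefficient of variation lay between 10.6% (Atp1b1, Veh) and 42.6% (Slc26a4, Veh).

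For several genes a large part of the spread lay in 3 mice, which were picked by their high levels of Pou3f4 and Slc26a4. Picking high mice raises the share of the spread that they hold, so the shares below are a description only. Averaged over the 8 genes, the log2 CPM of a mouse deviated from the mean of the 10 mice by 0.32 in NR-treated mouse 2, by 0.59 in non-treated mouse 3 and by 0.41 in non-treated mouse 4. The other 7 mice lay between -0.41 and -0.03. In non-treated mice 3 and 4 all 8 genes were above their own mean, and in NR-treated mouse 2 it was 7 of 8, with Otos the exception. In NR-treated mice 1 and 5 the number was 0. NR-treated mouse 2 and non-treated mice 3 and 4 together held 66.7% of the squared deviations of Pou3f4, 65.7% of Slc26a4 and 63.9% of Slc4a11. They held 59.9% of those of Coch and 53.8% of Tbx18, but 49.2% of Car3, 42.3% of Otos and 20.8% of Atp1b1. The 3 mice did not contribute evenly. Slc4a11 deviated by 0.89 in non-treated mouse 3, 0.22 in NR-treated mouse 2 and 0.06 in non-treated mouse 4, against -0.64 in NR-treated mouse 1. Coch deviated by 0.62, 0.40 and 0.16 in the same 3 mice, in that order, against -0.37 in non-treated mouse 2. Over all genes another library stood furthest from the rest, that of non-treated mouse 2. Its counts differed from those of each other mouse by a chi-square of 81.6 to 132.3 per gene, against 12.1 to 62.1 for the other pairs, and its 10 highest genes took 9.13% of its counts.

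**Figure D3:**
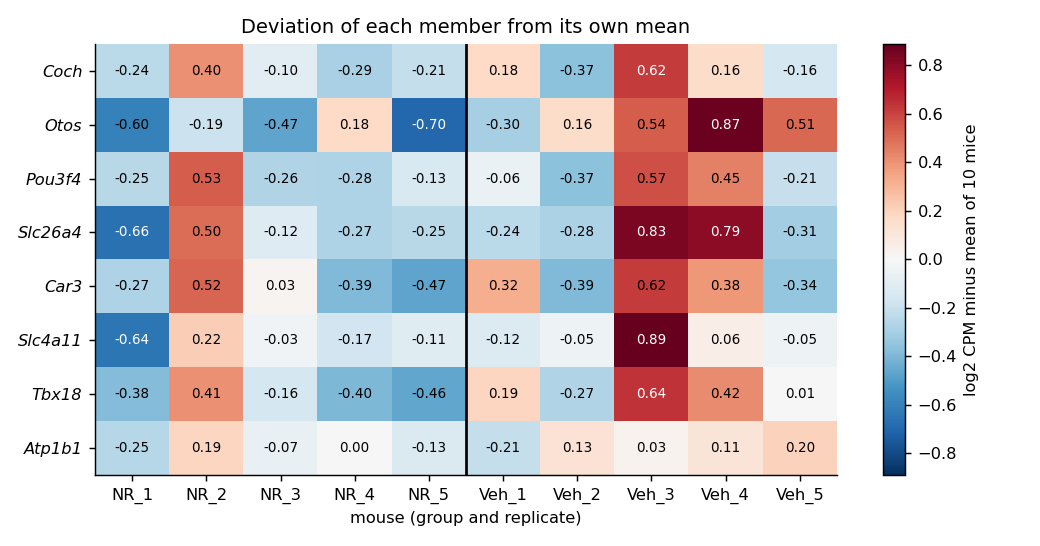
Deviation of the log2 CPM of each gene (rows) from its mean over the 10 mice, by mouse (columns, with the NR group to the left of the line). The columns of NR 2, Veh 3 and Veh 4 are mostly red (above the mean), with mean deviations of 0.32, 0.59 and 0.41, and the columns of NR 1 and NR 5 are blue throughout.

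Pou3f4 and Slc26a4 fell into separate clusters of mice, with a gap between NR-treated mouse 2 and non-treated mice 3 and 4 on one side and the other 7 mice on the other that took 53.7% and 40.8% of the range of log2 CPM. A gap of 40% with at least 2 mice on each side was taken as a separation, and the other 6 genes had none. Correlations over all 10 mice were therefore read only for those 6. These genes are not free of the same 3 mice, which also stood above the largest gap of Tbx18 (19.8% of its range). The 3 mice held 53.8% to 63.9% of the squared deviations of Tbx18, Coch and Slc4a11, for Slc4a11 mostly through non-treated mouse 3. Among Coch, Car3, Slc4a11 and Tbx18, Pearson's r lay between 0.664 and 0.950 in the 6 pairs. All 6 passed an adjusted p of 0.05 in a permutation test (adjusted over 28 pairs of members, 0.00056 to 0.0174), and 3 passed by Spearman's rho, which lay between 0.661 and 0.927 (adjusted permutation p 0.00644 to 0.0815). Without the 2 mice farthest from the median of 1 gene of the pair, r in these pairs lay between 0.293 and 0.938. That gene was the one earlier in the opening list, here and below, so the mice left out can differ between pairs. The lowest values were those of Slc4a11 with Car3 (0.293) and with Coch (0.327), so these 2 relations rest on the mice left out. Otos with the same 4 genes gave an r of 0.312 to 0.575, a rho of 0.273 to 0.649 and 0 pairs past an adjusted permutation p of 0.05 (0.127 to 0.406 by r and 0.0827 to 0.522 by rho). Atp1b1 with them gave an r of 0.159 to 0.470 and a rho of 0.127 to 0.600, also with 0 pairs past it (0.233 to 0.6503 by r and 0.121 to 0.734 by rho). Without the 2 farthest mice, r lay between -0.01 and 0.621 for Otos and between -0.14 and 0.616 for Atp1b1. Otos and Atp1b1 had an r of 0.691 (0.672 without the 2 farthest mice) and a rho of 0.661, with adjusted permutation p of 0.0534 and 0.0815.

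Within the 7 mice outside the high cluster, 0 of the 28 pairs passed an adjusted p of 0.05 by r (lowest 0.176) or by rho (lowest 0.619) in the exact permutation test over 5040 orderings. The highest r there were 0.934 for Slc26a4 with Slc4a11, which was -0.51 without the 2 mice farthest from the median, and 0.905 for Coch with Car3, which was 0.725. Coch with Tbx18 had an r of 0.8003 and Car3 with Tbx18 one of 0.774 (unadjusted exact permutation p = 0.025 and 0.0391), whereas Slc4a11 with Coch had 0.149 and with Car3 0.0887. Otos with Atp1b1 had 0.866 (unadjusted exact permutation p = 0.0155). The 3 mice outside these 7 were picked by their high levels of Pou3f4 and Slc26a4, which narrows the spread and can lower r. The lack of passing pairs over 7 mice therefore does not show that the genes vary apart. The members of a mouse share its library depth and scaling.

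**Figure D4:**
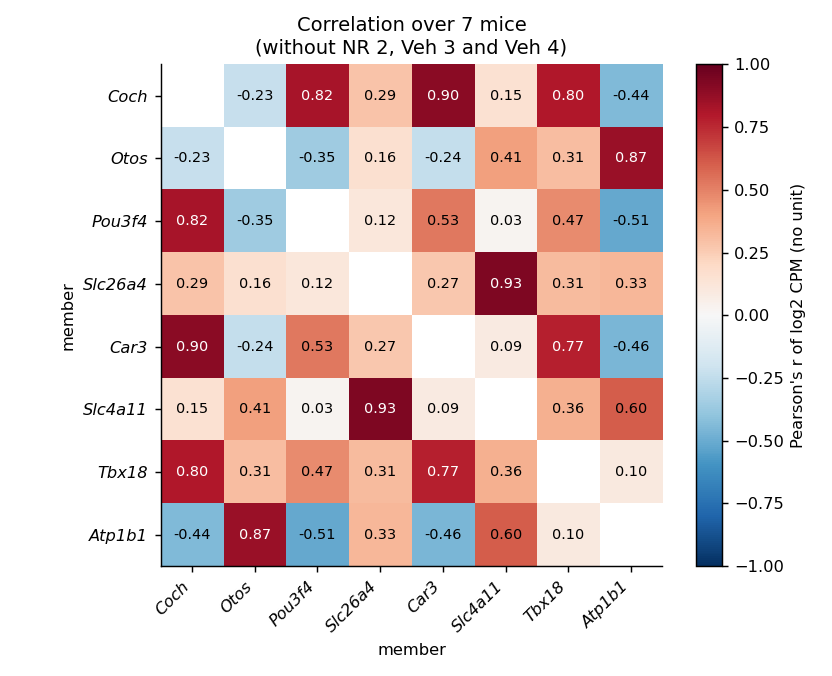
Pearson's r between the log2 CPM of each pair of the 8 genes (both axes) over the 7 mice that remain without NR-treated mouse 2 and non-treated mice 3 and 4, on a scale from -1 (blue) to 1 (red). The pairs range from -0.51 to 0.934, and none passed an adjusted permutation p of 0.05.

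The same 3 mice were the highest or the lowest of the 10 in several marker lists of other cell types. The hair cell markers summed to 403.0, 577.0 and 615.4 CPM in NR-treated mouse 2 and non-treated mice 3 and 4, against 257.3 to 308.0 CPM in the other 7 mice. The supporting cell and tectorial membrane markers summed to 633.2, 1131 and 1214 CPM in them, against 381.5 to 620.6 CPM. The cartilage markers summed to 161.3, 201.3 and 193.5 CPM, against 125.3 to 151.7 CPM, and the otolithic markers to 31.1, 39.7 and 39.4 CPM, against 19.9 to 27.6 CPM. The strial marginal cell markers, at 318.8, 344.5 and 603.6 CPM, barely parted from the 169.0 to 317.8 CPM of the others. The neutrophil lineage markers ran the other way, at 1259, 1237 and 1980 CPM in the 3 mice and 2598 to 5296 CPM in the others. The general fibroblast markers summed to 829.4, 785.5 and 589.5 CPM in the 3 mice and 697.1 to 3304 CPM in the others, with overlap. The pericyte list did not set the 3 mice apart. The neuronal markers were lowest of all in non-treated mice 3 and 4, at 3751 and 4210 CPM. NR-treated mouse 2, at 5624 CPM, lay within the 4667 to 6125 CPM of the others. The part of these differences in the members' levels was not tested.

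The size and sign of several changes moved with these mice. Without non-treated mouse 3 alone, the log2 fold change was -0.02 for Coch, -0.01 for Pou3f4, -0.17 for Slc26a4, -0.09 for Car3 and -0.25 for Tbx18. Leaving out mice with high levels from the Veh group alone raises the NR minus Veh difference by construction. Leaving out a high mouse of the NR group alone lowers it, and without NR-treated mouse 2 Coch was at -0.33 and Pou3f4 at -0.35. Without non-treated mice 3 and 4, the log2 fold change was 0.04 for Coch, 0.17 for Pou3f4, 0.17 for Slc26a4 and 0.03 for Car3, so that 4 of the 8 genes kept a negative value and 0 passed an unadjusted p of 0.05. Otos was then at -0.48 with an unadjusted p of 0.0629 in edgeR. Without NR-treated mouse 2 as well, so that high mice of both groups were left out, all 8 values were negative. Among them, Pou3f4 was at -0.02, Slc26a4 at -0.03 and Coch at -0.10 (unadjusted p = 0.827, 0.795 and 0.437 by edgeR). The 3 mice were picked by their levels of these same genes, so this fit is not an independent check. Otos was at -0.51 (unadjusted p = 0.0731 by edgeR) and Tbx18 at -0.32 (unadjusted p = 0.0182, adjusted p = 0.316 by edgeR). For Otos, leaving out any single mouse gave a log2 fold change between -0.88 and -0.58, with an unadjusted p between 0.00112 and 0.0220 and an adjusted p between 0.151 and 0.764 in edgeR.

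**Figure D5:**
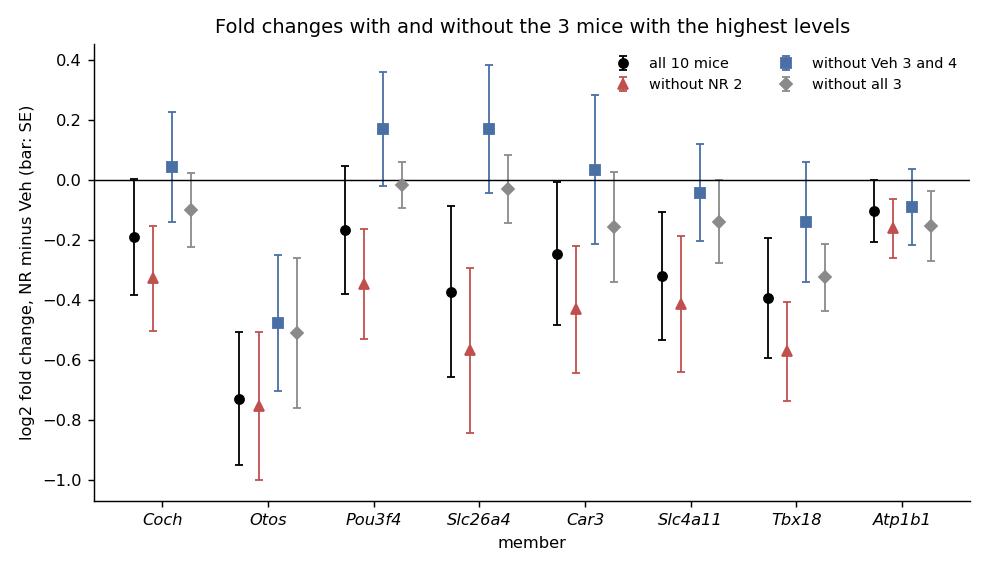
Log2 fold change (NR minus Veh, vertical axis, bars show the SE) of the 8 genes with all 10 mice, without NR-treated mouse 2, without non-treated mice 3 and 4, and without all 3. Without non-treated mice 3 and 4 the points of Coch, Pou3f4, Slc26a4 and Car3 lie above 0 (0.03 to 0.17), and Otos stays at -0.48.

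Ratios between members within a mouse do not depend on the scaling of the libraries. Coch over Tbx18 was 62.7, 56.6, 59.3, 61.3 and 67.5 in CPM in the NR-treated mice 1 to 5 and 56.3, 53.0, 56.0, 47.4 and 50.6 in the non-treated mice 1 to 5. Every NR-treated mouse was above every non-treated mouse, with the nearest values 56.6 and 56.3. The mean log2 ratio was higher by 0.22 in the NR group, with the smallest p the exact permutation test can give, 0.00794, and an adjusted p of 0.222 over the 28 ratios. Otos over Atp1b1 was 0.556, 0.543, 0.537, 0.802 and 0.478 in the NR-treated mice 1 to 5 and 0.670, 0.725, 1.01, 1.20 and 0.877 in the non-treated mice 1 to 5. NR-treated mouse 4 was the only one of its group above any non-treated mouse. The log2 difference was -0.61 (exact permutation p = 0.0238, adjusted p = 0.296). No ratio passed the adjustment.

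Genes that carry K+ and water through the same tissue, or couple its cells, were counted next. Of 9 transport and coupling genes tested, 4 were lower and 0 higher at an unadjusted p of 0.05. Over all genes 4.88% were lower and 4.83% higher, which holds beside the counts of the next lists too. The lists were chosen with earlier results of these data known. Of the 9 genes, 0 passed an adjusted p of 0.05, and the median log2 fold change was -0.34. All 9 values were negative, and none of the 9 had groups that did not overlap. Slc12a2, the cotransporter that loads cells with Na+, K+ and Cl-, was at 442.9 ± 83.9 CPM in the NR group and 727.2 ± 212.2 CPM in the Veh group, a log2 fold change of -0.72 (unadjusted p = 0.00333, adjusted p = 0.408 by edgeR). Gjb2 and Gjb6, the connexins of the fibrocyte gap junctions, were at -0.52 and -0.37 (unadjusted p = 0.0324 and 0.0482 by edgeR). Car2, a cytosolic carbonic anhydrase, was at -0.45 (unadjusted p = 0.00603 by edgeR). Several of these genes are also used by strial, supporting or nerve cells. The count of 4 was 2 without NR-treated mouse 1, 4 or 5 or non-treated mouse 3.

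Among 11 other subunits and regulators of the Na,K-ATPase, 2 were lower and 1 was higher at an unadjusted p of 0.05, with a median log2 fold change of 0.03. Atp1b2 was at -0.53 (unadjusted p = 0.0177 by edgeR). The pump regulators Fxyd3 and Fxyd7 were at -0.74 and 1.33 (unadjusted p = 0.00108 and 0.0468 by edgeR), and Fxyd3 had no overlap between the groups. Fxyd2 had a log2 fold change of 0.99 (unadjusted p = 0.169). Among 13 other carbonic anhydrases only Car2 passed, which is also counted among the transport genes. Car8, at 0.51, and Car12, at -0.45, had the largest values beside it (unadjusted p = 0.108 and 0.0989 by edgeR). Among 16 other Slc26 and Slc4 exchangers only Slc26a7 passed, at -0.72 (unadjusted p = 0.0187 by edgeR), and Slc26a1, at -0.56, and Slc4a1, at -0.54, had the next largest values (unadjusted p = 0.125 and 0.1095). The list medians were -0.17 and -0.09.

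Among 9 regulators of the otic mesenchyme, Tbx2 was lower at -0.46 and Epha4 at -0.30, and Tbx15 was higher at 0.78 (unadjusted p = 0.00408, 0.0268 and 0.0297 by edgeR), with a list median of -0.02. Among 5 relatives of Pou3f4 and Tbx18 that were tested, Pou3f1 was higher at 0.33 (unadjusted p = 0.0160 by edgeR) as was Tbx15, which is on both lists, Pou3f3 was at -0.19 (unadjusted p = 0.245), and the median was 0.02. Among 14 genes of the ligament and limbus matrix, 1 was lower, the elastin-associated glycoprotein gene Emilin2, at 57.6 ± 6.43 against 81.3 ± 15.4 CPM. Its log2 fold change was -0.50 (unadjusted p = 0.00189, adjusted p = 0.408 by edgeR) and every NR-treated mouse was below every non-treated mouse. Otor, at -0.50, and Vim, at 0.25, had the next largest values and did not pass (unadjusted p = 0.293 and 0.0980), and the median was -0.14. In none of these lists did a gene pass an adjusted p of 0.05.

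The genes whose levels followed the members most closely were sought among 11708 genes with a mean of at least 10 CPM, by Pearson's r with the mean log2 CPM of the 8 members over the 10 mice after removal of the group means. Zic2 had the highest r, 0.986, followed by Rcn2 with 0.981, Hsd17b7 with 0.978 and Slc25a14 with 0.978. Tmem106c, Psat1, Kcna10, Cnn3 and Nkx6-1 came next, and Pou3f3, the paralog of Pou3f4, was the tenth with 0.964. The median r of all genes compared was -0.02, and 5.14% had an r above 0.8. These values are a description and share the 3 high mice. None of the 10 genes passed an unadjusted p of 0.05 between the groups.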

How the data were processed

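RNA-seq counts of the whole cochlea of 10 mice (5 NR, 5 Veh) were analysed. The deposited values are raw counts of reads per gene, in 1 file per mouse. Per the methods and the submitters' processing notes, reads were filtered with fastp, aligned to mm10 with STAR 2.6.1d and counted with featureCounts 1.5.0 with default settings, so without regard to strand. The annotation release is not given in the sources used here. The deposited counts are not normalized, and the authors normalized them with DESeq2 1.26.0 for their own tests, which were not used here.

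Counts were tested with edgeR 4.0.16 in R 4.3.3 (TMM, filterByExpr, glmQLFit and glmQLFTest, no covariate), and adjusted p-values are Benjamini-Hochberg values over all 18329 genes tested. CPM used TMM-scaled library sizes, and log2 CPM a prior count of 2. Intervals are 95%. Single values were tested with an exact two-sided permutation test over all labelings, and correlations over 10 mice with 100000 permutations. DESeq2 1.42.0 and the settings of the closing section were alternatives.

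The members, the 7 lists of related genes and the 16 marker lists were chosen with earlier results of these data known. The text names all members, genes of the related lists at an unadjusted p of 0.05 or among the 3 largest log2 fold changes of their list, up to 3 genes of the highest level per marker list, and the 10 genes most like the members. Some genes of the related lists are not reported here and enter none of their counts. Genes outside this rule were named after their values were seen. Gene models are from GENCODE M21 and promoter windows from RefSeq (GRCm38.p6). Intervals and counting errors do not cover differences in dissection.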

Additional observations from a re-analysis of the deposited data

Results flagged for a closer look

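Of the 16 groups of 5 mice (8 genes, NR and Veh), 4 had a mouse whose gap to its neighbour, as a share of the range of the group, was above the critical value of Dixon's test, 0.71. NR-treated mouse 2 was highest for Coch (3612 CPM, next 2551, share 0.769), for Pou3f4 (100.1 CPM, next 62.9, share 0.864) and for Tbx18 (63.8 CPM, next 43.1, share 0.718). Non-treated mouse 3 was highest for Slc4a11 (1932 CPM, next 1086, share 0.868). Chance is set to pass this test in 5% of groups, and the genes share their mice, so the 4 are not independent. NR-treated mouse 2 also had the highest share of mitochondrial reads, 3.96% against 2.66% to 3.12% in the other 9 mice, and the part of this in the result was not tested.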

How the results depend on the processing

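With all 10 mice, 6 alternatives were run: DESeq2, its size factors in edgeR, library totals only, no filter on low counts, a robust fit and the replicate block. Under each of them all 8 genes kept a negative log2 fold change, Otos alone passed an unadjusted p of 0.05 and none passed an adjusted p of 0.05. Otos lay between -0.73 and -0.70, with an adjusted p from 0.0991 (DESeq2) to 0.529 (replicate block, -0.71). The replicate numbers did not pair the mice. The correlations of same-numbered deviations lay between -0.22 and 0.17, and only NR-treated mouse 1 correlated best with its own number.

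Without non-treated mice 3 and 4, Coch (0.0423), Pou3f4 (0.170), Slc26a4 (0.170) and Car3 (0.0344) changed sign, 4 members kept a negative value and 0 passed an unadjusted p of 0.05. Leaving out high mice of the Veh group alone raises the values by construction. The cause of the high levels in these mice was not tested. Without NR-treated mouse 2 as well, a setting added after seeing the data, all 8 were negative, with Pou3f4 at -0.0171 and Slc26a4 at -0.0303. The count of transport genes lower at that p was 3 in both settings. Leaving out 1 mouse at a time, 1 to 2 members and 2 to 5 transport genes were lower at an unadjusted p of 0.05, with 2 members without NR-treated mouse 2 or non-treated mouse 2. The count of transport genes was 2 without NR-treated mouse 1, 4 or 5 or non-treated mouse 3. Over all genes, the 886 higher and 894 lower genes became 669 to 1414 and 484 to 1059 when a mouse was left out. There were 1414 higher genes without the filter and 574 lower ones with library totals only, and DESeq2 called 102 at an adjusted p of 0.05 where edgeR called 0.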

Other observations

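Markers of other cell types differed between the groups beside the members, and the part of these differences in the members' levels was not tested. At an unadjusted p of 0.05, 6 of 8 supporting cell and tectorial membrane genes, 4 of 7 strial intermediate and pigment cell genes, 1 of 8 hair cell genes and 1 of 6 strial marginal cell genes were lower in the NR group, and none of these was higher. Over all genes, 4.88% were lower and 4.83% higher at this p, beside these counts and those that follow. The marker lists were chosen with earlier results known. The pigment cell list summed to 303.4 to 566.3 CPM in the NR group and 566.6 to 1175 CPM in the Veh group, with Dct, an enzyme of melanin synthesis, at 237.2 and 461.7 CPM on average.

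On the other side, 5 of 7 skeletal muscle genes tested, 4 of 7 adipocyte genes tested, 4 of 8 neuronal genes and 4 of 6 fibroblast genes were higher in the NR group at an unadjusted p of 0.05, with none lower. The muscle list summed to 791.3 and 582.3 CPM in NR-treated mice 3 and 5 and to 76.5 CPM in NR-treated mouse 4, and NR-treated mice 1 and 2, at 10.3 and 24.4 CPM, lay within the 8.87 to 71.1 CPM of the Veh group. The adipocyte list summed to 67.0 to 125.0 CPM in the NR group and 40.7 to 63.9 CPM in the Veh group, and the fibroblast list, led by Col1a1 and Col1a2, to 829.4 to 3304 and 589.5 to 1224 CPM. The neuronal list summed to 5409 to 6125 and 3751 to 5888 CPM. Of the bone list 1 of 8 genes was higher, Col1a1 (510.7 to 1987 and 318.8 to 832.4 CPM summed), and of the endolymphatic sac list 1 of 3.

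Single genes were lower in the lists of Schwann cells (1 of 6), pericytes (1 of 6), cartilage (1 of 4 tested) and otolithic organs (1 of 3). In the erythroid and neutrophil lists 0 of 5 genes passed in either direction, with summed levels of 6958 to 12270 and 1259 to 4196 CPM in the NR group and 3758 to 16510 and 1237 to 5296 CPM in the Veh group. The pericyte list was the most even, at 300.2 to 333.7 and 315.5 to 338.9 CPM. No marker gene was at 0 in all mice.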
